A study of Mus musculus with 2 samples.

Results

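Elastin and 9 other genes of the arterial matrix were followed through single-cell RNA sequencing libraries of the developing mouse retina. The 10 genes (Eln, Mgp, Fbln1, Fbln2, Fbln5, Ltbp4, Fbn1, Bgn, Dkk2 and Gkn3) were chosen by symbol from the 24610 gene symbols with a row in either library, partly because Mgp, Eln and Gkn3 had been seen to be concentrated in Arterial cells of these data. Their levels in that cluster are therefore given as descriptions, without a test. All 10 have a row in both libraries.

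The libraries hold retinal cells of wild-type C57BL/6 mice at postnatal day 6 (P6) and postnatal day 15 (P15), sorted by flow cytometry as CD31+CD45- (an endothelial surface protein present, a leukocyte surface protein absent) and captured in droplets. No treatment was given in either group. There was 1 library per age. The study's methods state equal numbers of male and female mice for its experiments, and the number of animals behind each library is not given in the sources used here. Age and library therefore cannot be told apart, and every interval below covers counting error only.

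The P6 library held 1984 barcodes with 13958124 unique molecular identifiers (UMIs, 1 per captured RNA molecule), and the P15 library held 2141 barcodes with 11589641. A filter built from the study's stated exclusion limits, read as genes per cell, mitochondrial share and marker genes of other cells, kept 1424 P6 and 1644 P15 cells, with a median of 4985.5 and 4214.5 UMIs per cell. It is not the study's own set of cells, since 161 P6 and 29 P15 cells with a cluster label did not pass it. The study's cluster labels were used from a copy of its cell list that is shortened here, which holds 1560 P6 cells and only the first 438 P15 cells. In that copy, 40 P6 and 11 P15 cells were labelled Arterial, so the P15 values by cluster rest on part of the labelled P15 cells. Levels are given as UMIs per 1000000 UMIs (CPM) with a 95% Poisson interval. Of 10 arterial marker genes such as Gja5, Bmx and Efnb2, several of which the study itself used to name the cluster, all 10 had UMIs in the Arterial cells of both ages, at a summed level of 6149 CPM against 863 CPM in the other labelled P6 cells, and of 5460 against 1010 CPM at P15. Of 10 mural cell markers (pericytes and smooth muscle), 3 had a UMI in the P6 Arterial cells and 1 in the P15 Arterial cells, and 6 fibroblast markers had none at either age. The glia list had 309 UMIs in the P6 Arterial cells, all from 1 of its 6 genes, Glul.

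Elastic fibres give large arteries their recoil. Tropoelastin, the product of Eln, is laid onto a scaffold of fibrillin microfibrils with the help of fibulins and latent TGF-beta binding proteins, and is then cross-linked. In arteries most of this matrix is known to come from smooth muscle cells, but endothelial cells also make elastin and several fibulins, and matrix Gla protein, made by endothelium and muscle, limits calcification and BMP signalling in the vessel wall.

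The sequences just upstream of the start sites are shown for 5 of the genes, chosen as genes with contrasting patterns and with a window lying outside every annotated gene body. RefSeq holds a promoter window for 8 of the 10 genes (12 windows in all, since some have several start sites), leaving Eln and Mgp without one. Each line below gives the 250 bases before the start site on the coding strand, in GRCm38.p6. Capitals mark any match, on either strand, to the motifs searched, which were GGAA (the core of ETS factor sites), ACAAT (the core of SOX factor sites), TATAA (the TATA box), CAGAC (a SMAD element), CACGTG (an E box), CACGCG (a site of Hairy-type factors) and the AP-1 site TGACTCA, whose reverse complement is TGAGTCA. The Arterial genes Gkn3 (chr6:87388936-87389185, minus strand) and Dkk2 (chr3:132085042-132085291, plus strand) come first. Fbln5 (chr12:101819120-101819369, minus strand) was present in every P6 cluster and highest in Arterial cells. Fbln1 (chr15:85205699-85205948, plus strand) and Bgn (chrX:73483351-73483600, plus strand) were not concentrated in Arterial cells.
Gkn3: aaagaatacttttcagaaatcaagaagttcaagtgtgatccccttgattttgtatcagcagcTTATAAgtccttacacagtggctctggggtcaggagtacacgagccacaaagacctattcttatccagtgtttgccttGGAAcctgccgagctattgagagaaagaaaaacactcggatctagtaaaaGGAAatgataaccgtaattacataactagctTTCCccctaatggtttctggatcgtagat
Dkk2: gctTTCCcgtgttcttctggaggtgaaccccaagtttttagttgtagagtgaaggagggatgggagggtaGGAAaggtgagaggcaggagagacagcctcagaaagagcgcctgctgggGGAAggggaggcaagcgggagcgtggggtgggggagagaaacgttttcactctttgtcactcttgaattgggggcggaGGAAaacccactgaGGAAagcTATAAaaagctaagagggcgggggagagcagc
Fbln5: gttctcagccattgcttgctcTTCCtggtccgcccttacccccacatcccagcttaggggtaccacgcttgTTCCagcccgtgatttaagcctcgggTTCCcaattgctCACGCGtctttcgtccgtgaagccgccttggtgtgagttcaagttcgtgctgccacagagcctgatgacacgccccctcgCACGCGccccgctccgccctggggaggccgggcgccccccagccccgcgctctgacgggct
Fbln1: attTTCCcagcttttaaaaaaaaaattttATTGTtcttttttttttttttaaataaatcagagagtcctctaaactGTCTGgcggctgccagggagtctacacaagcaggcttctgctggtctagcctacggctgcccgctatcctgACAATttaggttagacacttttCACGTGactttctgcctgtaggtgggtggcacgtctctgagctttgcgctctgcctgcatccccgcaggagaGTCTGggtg
Bgn: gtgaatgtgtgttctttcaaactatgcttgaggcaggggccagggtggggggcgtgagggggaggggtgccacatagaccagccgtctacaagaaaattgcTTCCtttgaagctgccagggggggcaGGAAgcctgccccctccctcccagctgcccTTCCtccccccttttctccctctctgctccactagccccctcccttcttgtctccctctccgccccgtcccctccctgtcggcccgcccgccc
The GC content of these windows was 40.8% for Gkn3, 46.4% for Fbln1, 55.6% for Dkk2, 64.4% for Bgn and 65.2% for Fbln5, beside a median of 52.4% over 32851 RefSeq promoters of the same length. GGAA was found for all 8 genes with a window, but 93.4% of all promoters hold it. The TATA box letters were found for Dkk2, 32 bases before the start, and for Gkn3 at 188 and 187 bases, where the motif and its reverse complement overlap, and 22.8% of all promoters hold them. The SOX core was found only for Fbln1 (27.7% of all promoters hold it), as was the E box (6.02%). The Hairy-type site was found for Fbln5 at 141 and 61 bases before the start and for inner starts of Ltbp4 (7.62%). The SMAD element was found for Fbln1 and for an inner start of Fbln5 (42.2%). The AP-1 site was found in none of the 12 windows (4.46%). These are matches of letters, not sites of binding.

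Eln encodes tropoelastin and lies on chromosome 5 (GRCm38, chr5:134702593-134747323, minus strand, ENSMUSG00000029675). At P6 its level was 987 CPM (853-1136) in Arterial cells, 34.7 CPM (23.2-49.8) in Cap-Arterial cells, the capillary cluster with arterial features, and 15.4 CPM (11.1-20.9) in Cap-Venous cells. These 3 intervals did not overlap, and the remaining 6 clusters lay between 0 and 5.97 CPM, with overlapping intervals. The gene was detected in 26 of 40 Arterial cells (65.0%) and in 3.88% of the other labelled cells. UMIs per Arterial cell ran from 0 through a median of 1 to 37. The level in Arterial cells was thus 104 times that of the other labelled P6 cells together, and 28.4 times that of Cap-Arterial cells.

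At P15 the Arterial level of Eln was 591 CPM (396-849), with UMIs in 8 of 11 cells and from 0 through a median of 2 to 9 UMIs per cell. Outside the Arterial cluster, the picture differed from P6. The level was 107 CPM (93.1-122), and 25.5% of those cells held a UMI. The order of clusters after Arterial was Proliferative with 183 CPM (112-283), Cap-Venous with 140.1 CPM (115-169), Cap-Arterial with 112 CPM (77.8-157), Capillary, Primitive and Stalk with 81.0 CPM (55.4-114), where each neighbour's interval overlapped the next. Of the clusters with at least 10 cells, Tip came last with 24.6 CPM (9.90-50.8), below the interval of Stalk. The Arterial level was 5.54 times that of all other labelled P15 cells, 14.5 times with labels predicted for all cells passing the filter and 3.34 times with each cell thinned to 3000 UMIs. The P15 cells were shallower, and with each cell thinned to 3000 UMIs, leaving out 160 P6 and 114 P15 cells other than Arterial, Eln was found in 2.06% of those cells at P6 and 16.9% at P15. Likewise thinned, the share was 1.18% and 9.27% for Mgp and 4.12% and 27.2% for Ltbp4.

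The P15 barcodes with neural markers, which should lack Eln, were not a clean set. Among 30 barcodes with UMIs of at least 3 of 8 neural retina markers, 7 held Eln (23.3%, 48.9 CPM, median depth 6854 UMIs, against 4354 UMIs in the other labelled cells). These barcodes also held the endothelial gene Cldn5, at 8084 CPM beside 10062 CPM in the labelled cells other than Arterial. Among 89 barcodes with at least 4 of 10 mural markers, a cell type that can make elastin itself, 18 held Eln (20.2%, 88.0 CPM). The share of P15 cells with an Eln UMI was thus close to that in the neural barcodes, and is not read as expression in each cell. At P6, none of the 62 neural barcodes held an Eln UMI, which allows a level of up to 5.0 CPM. Those P6 barcodes held less endothelial RNA than the P15 ones. The summed level of 10 endothelial markers was 1458 CPM in them, beside 10191 CPM in the P6 labelled cells other than Arterial. At P15 it was 13383 and 16403 CPM. The neural sets of the ages are therefore unlike, and nothing about Eln is read from their difference. The ratio of Eln to Mgp UMIs also differed between cell sets at P15. It was 30.9 Eln UMIs per 100 Mgp UMIs in Arterial cells, 2.89 in mural barcodes and 158 in the other labelled cells.

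Fbn1, the gene of fibrillin-1 and of the microfibril backbone (chr2:125300594-125507993, minus strand), gave too few UMIs for more than a description. At P6, 13 of its 19 UMIs in labelled cells (68.4%) lay in Arterial cells, in 12 of the 40 cells, at 65.8 CPM (35.0-113). The other 6 were split evenly between Cap-Arterial and Cap-Venous cells. At P15, no labelled cell held a UMI, which allows up to 61.1 CPM in the 11 Arterial cells, close to the P6 level, so that a difference between the ages was not detectable at this depth. Over all cells passing the filter, Fbn1 had 18 UMIs at P6 and 10 at P15.

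**Figure D1:**
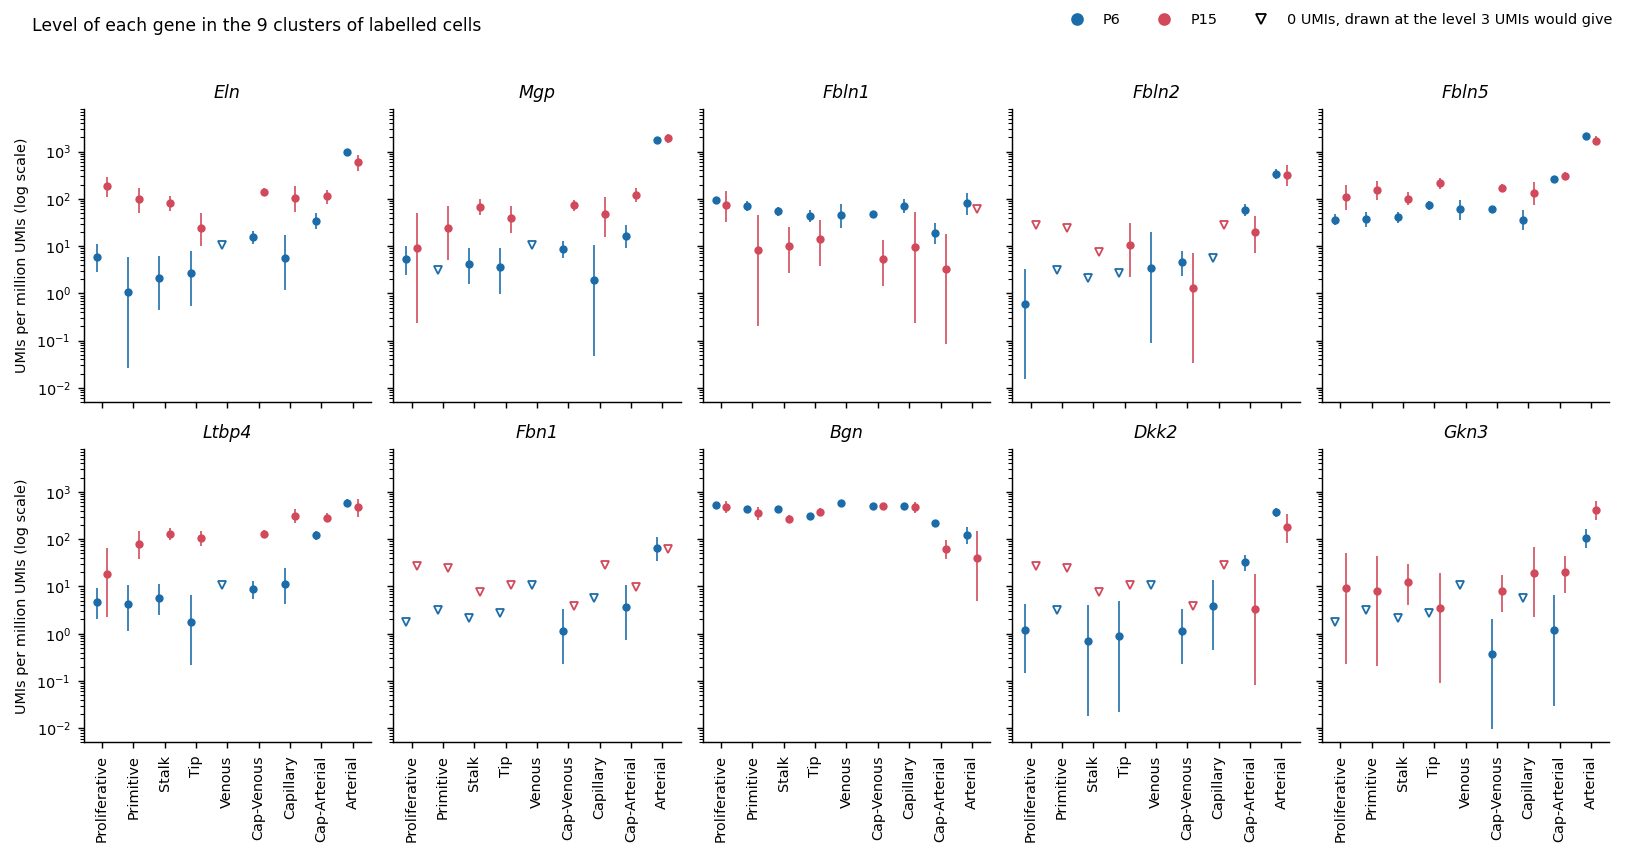
Levels of the 10 genes by cluster, in CPM on a log axis, with 1 panel per gene and P6 and P15 side by side. Bars are 95% Poisson intervals, open triangles mark clusters with 0 UMIs and stand at the level of 3 UMIs, and P15 Venous, with 2 cells, is not drawn. The Eln panel has its highest point in Arterial cells at both ages (987 and 591 CPM), with the other clusters well below at P6 and closer at P15, and Bgn has its lowest points in Arterial cells (121 and 40.7 CPM).

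The fibulins connect elastin to microfibrils and basement membranes. Fbln5, which binds tropoelastin and directs it onto microfibrils (chr12:101746565-101819055, minus strand), was detected in every P6 cluster. Its level was 2126 CPM (1927-2339) in P6 Arterial cells and 261 CPM (227-298) in Cap-Arterial cells, and the remaining 7 clusters lay between 36.3 and 72.4 CPM. It was the member detected in most Arterial cells, 37 of 40 at P6 (0 to 59 UMIs per cell, median 7) and 10 of 11 at P15 (0 to 27, median 5). At P15 the Arterial level was 1711 CPM (1365-2119), followed by Cap-Arterial with 307 CPM (248-376) and Tip with 211 CPM (161-272), which overlapped. The Arterial to other ratio was 30.8 at P6 and 9.70 at P15, on a level in the other cells of 69.0 and 176 CPM.

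Fbln2, a fibulin of elastic laminae and basement membranes (chr6:91212455-91272540, plus strand), was found mostly in Arterial and Cap-Arterial cells. At P6 it reached 339 CPM (263-431) in Arterial and 57.4 CPM (42.3-76.1) in Cap-Arterial cells, and at most 4.51 CPM in any other cluster. The Cap-Arterial level was 35.3 times that of the 7 other clusters together. At P15 Arterial cells held 326 CPM (186-529) and Cap-Arterial cells 19.8 CPM (7.27-43.1). In Arterial cells it ranged from 0 through a median of 1 to 7 UMIs per cell at P6 and from 0 through 1 to 5 at P15.

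Fbln1, a fibulin of basement membranes and elastic fibres (chr15:85205949-85286535, plus strand), did not share the arterial pattern. At P6 it was highest in Proliferative cells, with 95.5 CPM (81.3-112) and a UMI in 52.5% of cells. This level was 1.90 times (1.57-2.29) the level of the other labelled cells. Proliferative cells were also deeper, with a median of 7954.5 UMIs against 5363.5 over all labelled cells, and with each cell thinned to 3000 UMIs the share with a UMI was 26.7%, against 15.9% over all labelled cells. Arterial cells, at 81.0 CPM (46.3-131), could not be placed apart from most clusters, and Cap-Arterial cells were lowest, at 19.1 CPM (10.9-31.1). At P15 Proliferative cells held 73.3 CPM (31.6-144) and no other cluster more than 14.1 CPM. No Fbln1 UMI was found in the 11 P15 Arterial cells, which allows up to 61.1 CPM.

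Ltbp4, a latent TGF-beta binding protein that takes part in elastic fibre assembly (chr7:27305136-27337692, minus strand), followed the arterial gradient at P6. Its level was 587 CPM (485-704) in Arterial cells, 121 CPM (98.4-147) in Cap-Arterial cells and at most 11.5 CPM elsewhere. The Cap-Arterial level was 20.4 times that of the 7 other clusters together. At P15 the gradient was shallow. Arterial cells held 469 CPM (297-703), Capillary cells 312 CPM (215-438) and Cap-Arterial cells 284 CPM (227-351), with overlapping intervals, and Stalk, Cap-Venous and Tip cells lay between 106 and 132 CPM. The Arterial to other ratio was 36.5 at P6 and 3.14 at P15. At P15, 42.9% of the other labelled cells held a Ltbp4 UMI, and so did 53.3% of the neural barcodes and 52.8% of the mural barcodes, so that this share too is not read as expression in each cell.

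Mgp encodes matrix Gla protein, a vitamin K-dependent inhibitor of calcification (chr6:136872435-136875823, minus strand, ENSMUSG00000030218). At P6 its level was 1741 CPM (1562-1935) in Arterial cells, and the next cluster, Cap-Arterial, stood at 16.7 CPM (9.16-28.1), overlapping Cap-Venous with 8.64 CPM (5.48-13.0). The step from Cap-Arterial to Arterial was 104-fold. Within the Arterial cluster the gene was unevenly spread, with UMIs in 22 of 40 cells and from 0 through a median of 1 to 55 per cell. At P15, Arterial cells held 1915 CPM (1548-2344), with UMIs in 7 of 11 cells and from 0 through a median of 5 to 36 per cell. The other labelled P15 cells stood at 67.4 CPM (56.7-79.5) against 6.04 CPM (4.57-7.82) at P6, led by Cap-Arterial with 122 CPM (86.0-168), which overlapped Cap-Venous with 74.6 CPM (56.5-96.7).

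Mgp and Eln were found in largely the same Arterial cells at P6. Of the 40 cells, 19 held both, 7 only Eln, 3 only Mgp and 11 neither, and 93.8% of the Eln UMIs lay in cells with Mgp. Cells with Mgp were not deeper (median 4045 UMIs against 4585 without). Over 8 of the genes (without Fbln1 and Bgn, a choice made after their values were seen), P6 Arterial cells held between 1 and 8 genes, with a median of 5, and 24 cells held at least 5. In the 162 Cap-Arterial cells the median was 1, and 1 cell held 5.

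**Figure D2:**
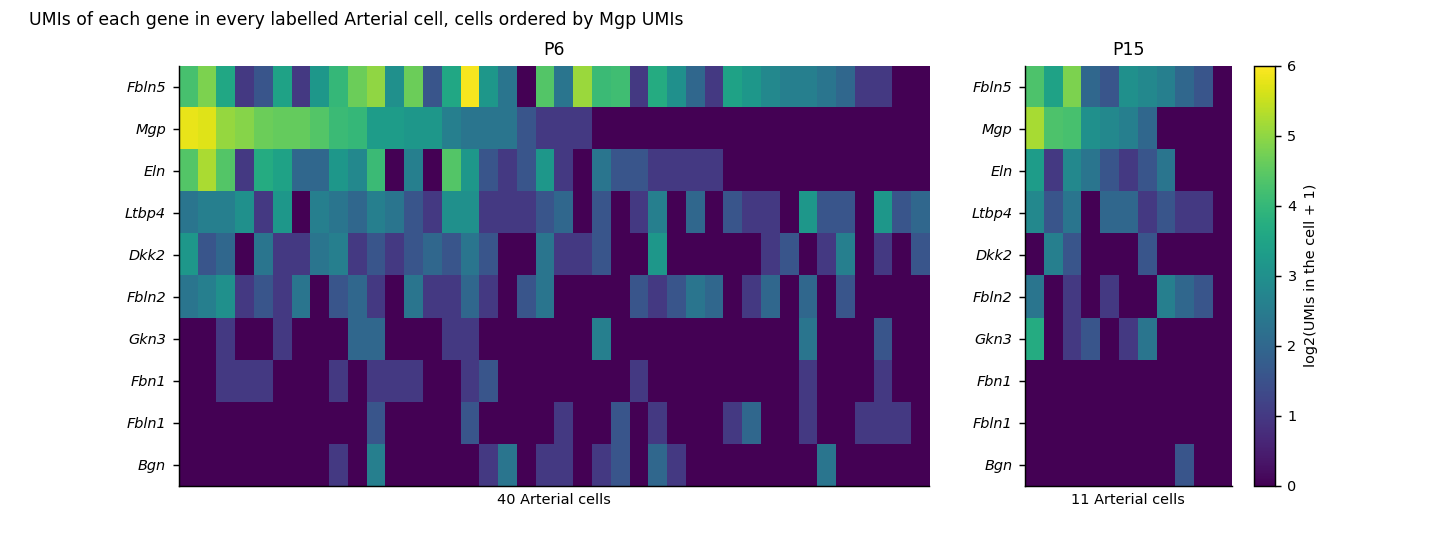
UMIs of each gene in the 40 P6 and 11 P15 Arterial cells, as log2(UMIs + 1), with 1 column per cell ordered by Mgp. Fbln5 is filled in nearly every column (37 of 40 and 10 of 11 cells), and Eln follows Mgp (19 P6 cells with both, 11 with neither). At P6, Bgn, Fbln1, Fbn1 and Gkn3 are mostly empty, with UMIs in 11, 11, 12 and 9 of the 40 cells.

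Bgn encodes biglycan, a small leucine-rich proteoglycan of the vessel wall (chrX:73483602-73495933, plus strand), and ran the opposite way. At P6 it was lowest in Arterial cells, at 121 CPM (77.8-181), then Cap-Arterial cells with 221 CPM (191-256) and Tip cells with 306 CPM (274-340), 3 intervals that did not overlap. The other clusters lay between 428 and 587 CPM. The gene was found in 11 of 40 Arterial cells against 76.1% of the other labelled cells, and the Arterial level was 0.275 times (0.176-0.409) that of the others. At P15, 2 UMIs in 1 of 11 Arterial cells gave 40.7 CPM (4.93-147), and Cap-Arterial cells stood at 62.8 CPM (37.8-98.0). Both intervals overlapped, and the upper bound of Cap-Arterial lay under the lower bound of every cluster besides these with more than 2 cells.

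Dkk2 encodes a secreted modulator of Wnt signalling (chr3:132085292-132180304, plus strand). At P6 it stood at 369 CPM (289.6-464.5) in Arterial cells, with UMIs in 27 of 40, and at 32.3 CPM (21.3-47.0) in Cap-Arterial cells, followed by no cluster above 3.83 CPM. The Cap-Arterial level was 30.9 times that of the 7 other clusters together. At P15, 9 of the 10 UMIs in labelled cells lay in 3 Arterial cells, 5 of them in 1 cell, and gave 183 CPM (83.9-348). The tenth was in a Cap-Arterial cell.

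Gkn3 encodes a secreted gastrokine, a family first described in the stomach, and is used as an arterial endothelial marker in the mouse brain (chr6:87383256-87388935, minus strand, ENSMUSG00000030048). At P6, 21 of its 23 UMIs in labelled cells were in Arterial cells, in 9 of 40 cells with at most 5 UMIs each, at 106 CPM (65.8-162). The other labelled cells held 2 UMIs, or 0.212 CPM. At P15, 5 of 11 Arterial cells held 20 UMIs, or 407 CPM (249-629), but 12 of the 20 were in 1 cell. All of these 5 cells also held Mgp. Outside the Arterial cluster, 22 UMIs were spread over 21 of 427 cells (4.92%, 10.5 CPM), with no cluster past 19.8 CPM. Of the 89 mural barcodes, 2 held a UMI.

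With at least 20 UMIs over both sides, 9 of the genes could be set between Arterial and other labelled cells at P6. Of these, 7 were at least 2-fold higher in Arterial cells (Eln, Mgp, Fbln2, Fbln5, Ltbp4, Dkk2 and Gkn3), where 15.2% of 11734 genes were, and 1 was at least 2-fold lower (Bgn), where 20.6% were. Fbln1, with a ratio of 1.40, lay between. The median ratio was 51.7 for the 9 genes and 1.02 for all genes counted. At P15, 6 of 8 were higher (13.6% of 8539 genes), and 2 were lower, Bgn and Fbln1 (30.6%), Fbln1 only on a count of 0. The median ratio was 7.62 against 0.911 for all genes. The cells were clustered on their expression and the genes chosen for this pattern, so nothing is read from these counts.

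The share of each gene's UMIs that Arterial cells held gives the same values another way. Arterial cells held 2.05% of all UMIs in labelled P6 cells and 2.29% at P15. Their share of Eln UMIs was 68.4% at P6 and 11.5% at P15, that of Mgp 85.8% and 40%, that of Ltbp4 43.3% and 6.87%, that of Fbln5 39.2% and 18.5%, and that of Gkn3 91.3% (21 of 23 UMIs) and 47.6% (20 of 42). The share was lower at P15 for these 5 genes. With predicted labels the P15 share was 24.1% for Eln and 63.8% for Gkn3. For Fbln2 the share with the study's labels was 51.9% (67 of 129 UMIs) at P6 and 61.5% (16 of 26) at P15. For Dkk2 it was 67.0% and 90% (9 of 10). Predicted labels gave 44.1% and 50% for Fbln2, and 58.8% and 56.5% (26 of 46) for Dkk2, so the higher Dkk2 share at P15 was not found with them. Bgn stayed below the share of all UMIs at both ages, with 0.571% and 0.261%.

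**Figure D3:**
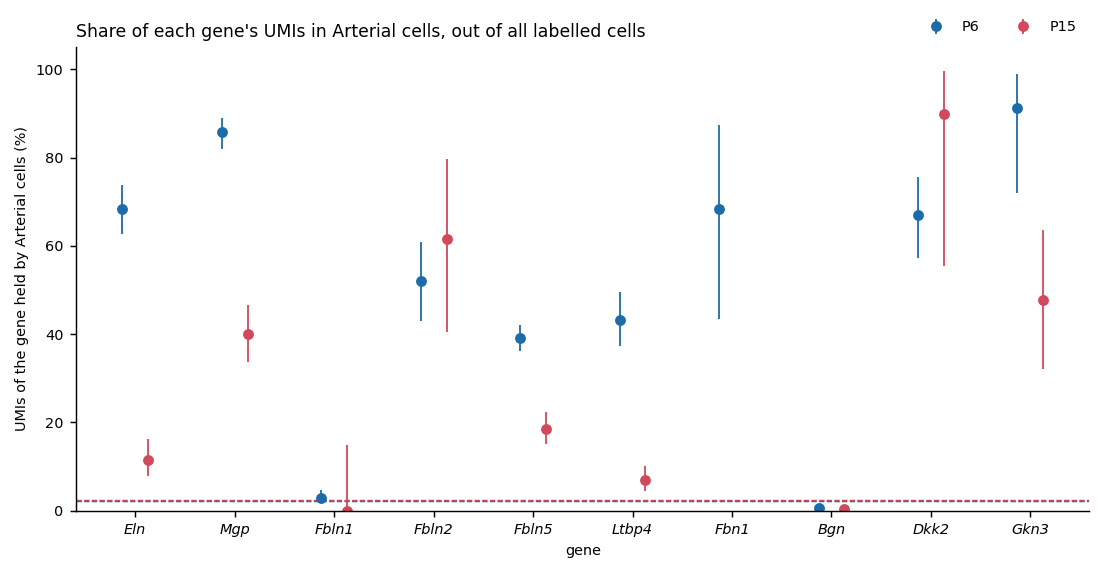
Percent of each gene's UMIs in labelled cells that Arterial cells held, at P6 and P15, with 95% Clopper-Pearson intervals as bars and dashed lines at the Arterial share of all UMIs (2.05% at P6, 2.29% at P15). Eln (68.4% and 11.5%) and Ltbp4 (43.3% and 6.87%) stand far apart between the ages, and Fbln2 (51.9% and 61.5%) does not.

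The comparison of the ages over all cells passing the filter asks how the level of these genes in sorted retinal endothelium differed between P6 and P15. With 1 library per age it is given as ratios. Ltbp4 was higher at P15, with 186 CPM (1372 UMIs) against 32.0 CPM (245 UMIs), a ratio of 5.81 (5.07-6.68). Eln stood at 124 CPM (916 UMIs) against 34.3 CPM (262 UMIs), a ratio of 3.63 (3.16-4.18). Mgp stood at 149.8 CPM against 51.5 CPM, a ratio of 2.91 (2.59-3.27). Fbln5, with 1988 against 883 UMIs, had a ratio of 2.34 (2.16-2.53). These 4 genes were thus higher in the P15 library each on more than 1000 UMIs over both libraries.

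Gkn3 had the highest ratio, 18.6 (12.1-30.1), on 395 P15 and 22 P6 UMIs. A single P15 cell held 101 of the 395 UMIs, and the ratio was 18.0 (11.02-31.2) without the top cell of each library. Over labelled cells instead, it was 8.23, on 42 P15 and 23 P6 UMIs, below the interval over cells passing the filter. Fbln1 was lower at P15, with 79 against 448 UMIs and a ratio of 0.183 (0.142-0.233), as was Dkk2, with 46 against 102 UMIs and a ratio of 0.468 (0.323-0.669). Bgn was lower by less, with a ratio of 0.838 (0.796-0.882), Fbln2 had a ratio of 1.23 (0.957-1.59), and Fbn1, on 28 UMIs in all, of 0.576 (0.238-1.32). Of the 10 genes, 5 were at least 2-fold higher at P15, beside 9.41% of the 12929 genes counted, and 2 at least 2-fold lower, beside 7.05%. The median ratio of the 10 genes was 1.78 and that of all genes counted 1.09 (0.13 on the log2 scale). Since the ages' results were known when the genes were chosen, the counts are descriptive.

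For Eln, Mgp, Ltbp4 and Fbln5 the ages differed outside the Arterial cluster more than within it. Among labelled cells other than Arterial, the P15 to P6 ratio was 11.2 (8.72-14.5) for Eln, 11.2 (8.16-15.5) for Mgp, 9.27 (7.61-11.3) for Ltbp4 and 2.56 (2.24-2.91) for Fbln5. Among Arterial cells it was 0.599 (0.391-0.887) for Eln, 1.10 (0.866-1.39) for Mgp, 0.798 (0.487-1.26) for Ltbp4 and 0.805 (0.629-1.02) for Fbln5. The intervals of each gene did not overlap between these sets of cells. Gkn3 was higher at P15 in both, with 22 against 2 UMIs outside the Arterial cluster and a ratio of 3.83 (1.97-7.43) within it, which was 2.20 (0.813-5.44) without the top cell of each library. In the other labelled cells, 5 of 9 genes were at least 2-fold higher at P15 (8.99% of 12174 genes) and 2 at least 2-fold lower (Fbln1 and Dkk2, 8.85%), with a median of 2.56 against 1.08 for all genes. In Arterial cells, 1 of 8 was higher (Gkn3, 8.14% of 2396 genes) and 2 were lower (Bgn and Dkk2, 12.3%), with a median of 0.802 against 0.981.

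The direction of Eln within Arterial cells depended on which P15 cells were counted. The shortened label list held 11 P15 Arterial cells, so labels were also predicted for all cells passing the filter, by nearest neighbours among labelled cells and without the 10 genes. This placed 31 of the 40 P6 and 7 of the 11 P15 Arterial cells in their own cluster when their labels were hidden, and gave 31 P6 and 38 P15 cells. In them, the ratio of Eln was 1.28 (1.04-1.57), from 1094 CPM at P6 to 1395 CPM at P15, that of Mgp 1.49, that of Fbln5 1.28 and that of Ltbp4 1.34. Of the 38 predicted P15 cells, 34 held Eln and 34 held Mgp. Dkk2 remained lower, at 0.415 times the P6 level. Gkn3 reached 12.1 times its P6 level, or 9.88 (5.81-18.1) without the top cell of each library. Outside the predicted Arterial cells the ratio was 7.52 for Eln, 6.10 for Mgp and 8.40 for Ltbp4.

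**Figure D4:**
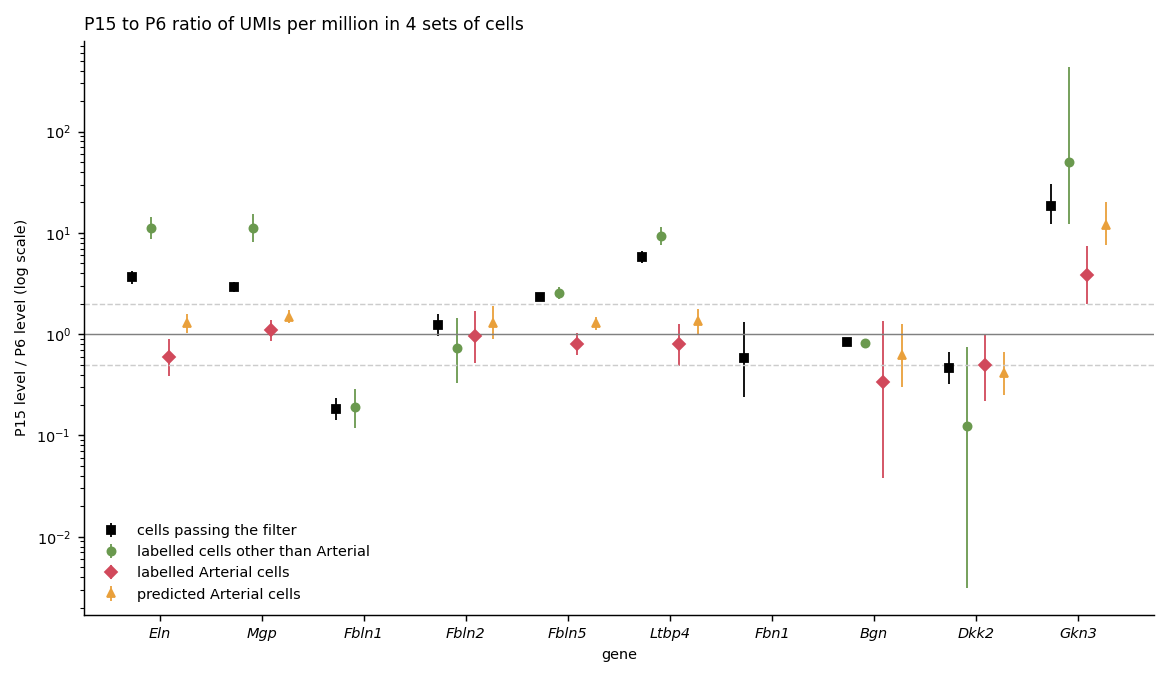
P15 to P6 ratio of each gene's level, on a log axis with 95% counting intervals, in all cells passing the filter, in labelled cells other than Arterial, in labelled Arterial cells and in predicted Arterial cells. Dashed lines mark 0.5 and 2, and ratios with 0 UMIs on a side or under 20 UMIs in all are left out. Eln lies at 11.2 in cells other than Arterial, at 0.599 in labelled and at 1.28 in predicted Arterial cells.

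By cluster, Ltbp4 was higher at P15 in Cap-Venous (14.8-fold, 9.35-24.5), Stalk (23.1-fold, 10.9-56.3), Capillary (27.2-fold, 11.3-79.4) and Tip cells (30 against 2 UMIs). In Cap-Arterial cells, where it was already well detected at P6, the ratio was 2.35 (1.74-3.17). Eln was also less far apart in Cap-Arterial cells than in the others named here, with 9.09 (6.29-13.4) in Cap-Venous, 37.9 (11.9-193) in Stalk, 30.7 (13.7-73.4) in Proliferative and 3.24 (1.91-5.51) in Cap-Arterial cells. Mgp had a ratio of 8.64 (5.24-14.7) in Cap-Venous and of 7.30 (3.85-14.6) in Cap-Arterial cells. Fbln1 was lower in Cap-Venous (0.111, 0.0297-0.290) and Stalk cells (0.185, 0.0490-0.492), and its ratio in the 14 P15 Proliferative cells was 0.767 (0.326-1.55). Bgn was lower in Cap-Arterial (0.284, 0.167-0.456) and Stalk cells (0.627, 0.505-0.771), and its ratio in Cap-Venous cells was 0.975 (0.868-1.09).

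Markers of other cell types were also higher at P15. In the labelled cells other than Arterial, the summed level of 5 erythroid markers was 22.6 CPM at P6 and 175 CPM at P15. That of 8 neural retina markers was 51.2 and 119 CPM. In labelled Arterial cells these lists stood at 10.1 and 244 CPM (2 and 12 UMIs) and at 20.2 and 122 CPM (4 and 6 UMIs). The 6 glia markers stood at 312 and 1073 CPM in the other cells. They were higher in Cap-Arterial cells (1592 and 2844 CPM) and in Arterial cells (1564 and 3443 CPM), in the latter all from Glul. The glia list is therefore not read as RNA of glia. Rgs5, a pericyte gene, had a ratio of 27.6 (21.6-35.7) between P15 and P6 over cells passing the filter, and 26.0% of the labelled P15 cells other than Arterial held it, against 2.37% at P6. All 7 mural markers with at least 20 UMIs over cells passing the filter were at least 2-fold higher at P15. Their median ratio was 19.2. Of all genes counted, 9.41% were at least 2-fold higher. The cells passing the filter included 9 mural barcodes at P15 and 0 at P6. In the labelled cells other than Arterial only 1 mural marker reached 20 UMIs, with a ratio of 26.2. The summed level of the 10 mural markers was 194 CPM in the P15 cells other than Arterial, where Tagln and Des were at 0, against 9.0 CPM at P6, where Cspg4 was at 0. In labelled Arterial cells it was 20.4 CPM at P15, on 1 UMI, and 15.2 CPM at P6, on 3 UMIs. In predicted Arterial cells it was 265 CPM at P15, on 42 UMIs, and 6.59 CPM at P6, on 1 UMI. The cells predicted other than Arterial stood at 277 CPM at P15 and 11.9 CPM at P6. The 89 mural barcodes of the P15 library held Mgp at 3044 CPM, 88 of 89 with a UMI, and 51.5% of all Mgp UMIs in that library, against 27.8% in the 8 mural barcodes at P6.

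Per 100 Rgs5 UMIs there were 31.4 Mgp UMIs in the mural barcodes, 31.9 in the neural barcodes, 38.6 in the labelled cells other than Arterial, 58.8 in Cap-Venous and 94.9 in Cap-Arterial cells. The 11 labelled P15 Arterial cells held 94 Mgp UMIs and 1 Rgs5 UMI, so their ratio rests on that 1 Rgs5 UMI. The Mgp to Rgs5 ratio of the pooled P15 cells other than Arterial was thus 38.6, beside 31.4 in the mural barcodes. Single clusters lay on either side of the mural ratio. The ratio was higher in the Cap-Venous and Cap-Arterial clusters. It was lower in Tip (26.2), Stalk (24.8), Proliferative (14.3, 1 Mgp UMI), Capillary (12.2, 5 Mgp UMIs) and Primitive cells (10.3, 3 Mgp UMIs). The part of mural RNA in the Mgp level outside the Arterial cluster was not tested. For Eln the ratio was 0.908 per 100 Rgs5 UMIs in mural barcodes and 61.1 in the labelled cells other than Arterial, and for Ltbp4 it was 1.49 and 85.5. Without the mural barcodes the P15 to P6 ratio of Mgp was 2.67. Gkn3 was found in 2.25% of the mural barcodes against 4.92% of the labelled cells other than Arterial.

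**Figure D5:**
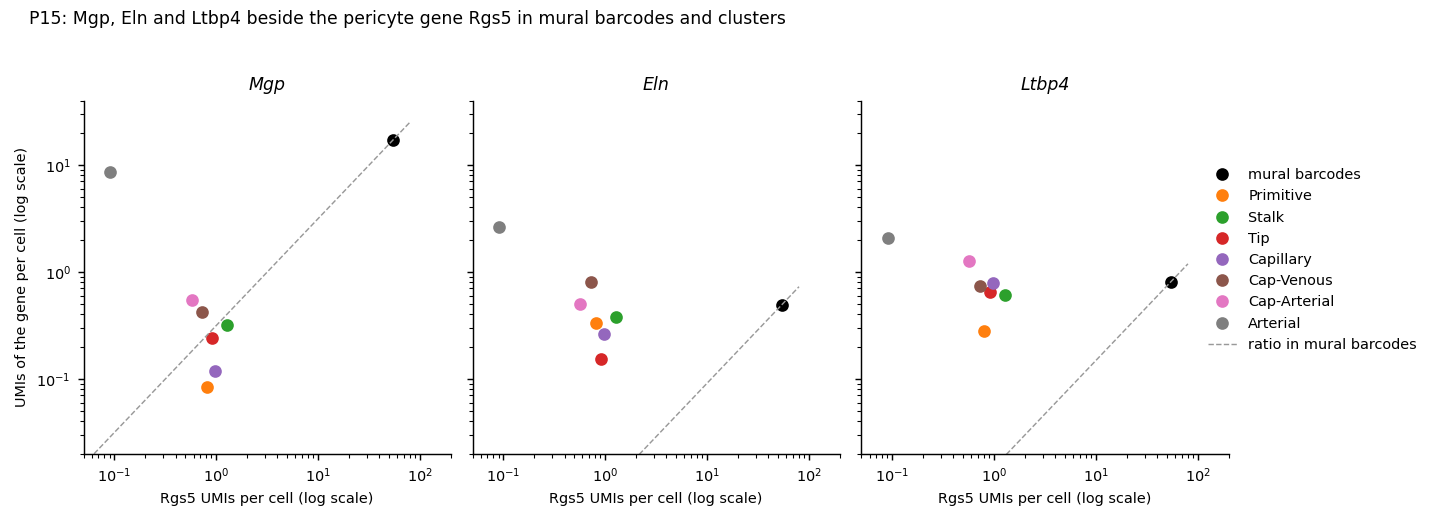
UMIs per cell of Mgp, Eln and Ltbp4 against UMIs per cell of Rgs5 in the P15 mural barcodes and in P15 clusters. Proliferative and Venous cells are not drawn. The dashed line is at the ratio in the mural barcodes. Mgp lies on either side of that line in the clusters other than Arterial (31.4 per 100 Rgs5 UMIs in mural barcodes, 38.6 in cells other than Arterial). It lies far above the line in the 11 labelled Arterial cells, which hold only 1 Rgs5 UMI. Eln and Ltbp4 lie above the line in the clusters (61.1 and 85.5 in cells other than Arterial, against 0.908 and 1.49 in mural barcodes).

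Other genes of the elastic fibre gave a mixed picture. Of 22 genes listed for elastic fibres and microfibrils, 10 had at least 20 UMIs between the ages, of which 2 were at least 2-fold higher at P15, Mfap2 (2.49), a microfibril glycoprotein, and Adamtsl4 (3.85), and 1 was lower, Ltbp3 (0.454, on 23 UMIs), beside 9.41% higher and 7.05% lower among all genes. The median ratio was 1.03, beside 1.09 for all genes. Over every barcode, 5 of 12 were higher and none lower, with a median of 1.81. That set holds 89 mural barcodes at P15 against 8 at P6. The share over all genes was not counted for it, so nothing is read from this count. The cross-linking enzymes were scarcely captured. Lox had 1 UMI at each age, and Loxl2, with 61 against 108 UMIs, had a ratio of 0.586. In P6 Arterial cells 2 of 8 counted genes were higher, Mfap2 (5.55) and Efemp2 (2.94), the gene of fibulin-4, and 3 were lower, Hmcn1 (0.391), Loxl2 (0.330, 1 UMI in Arterial cells) and Adamtsl4 (0 against 21 UMIs), beside 15.2% higher and 20.6% lower among all genes. At P15, of 6 counted, Mfap2 (2.43) and Efemp2 (2.03, 4 UMIs) were higher there and Hmcn1 (0.166, 2 UMIs) lower. Among all genes, 13.6% were higher and 30.6% lower. The interval of Efemp2 (0.540-5.39) included 1.

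Among 18 small leucine-rich proteoglycans and partners of the matrix, 9 were counted between the ages. Of these, 2 were higher at P15, Aspn (6.23) and Sparcl1 (2.25), none lower, and the median ratio was 1.54, again beside 9.41% and 7.05% of all genes. Ggcx, whose product carboxylates matrix Gla protein, had a ratio of 1.54 and Vkorc1, which recycles its vitamin K cofactor, of 1.02. In P6 Arterial cells, Omd (7.55, 3 UMIs) and Gas6 (2.12) were higher and Nid2 (0 against 117 UMIs) lower, of 9 counted, beside 15.2% and 20.6% of all genes. For Dkk2, the related Dickkopf and gastrokine genes gave almost no UMIs. The counted genes of that list were the Wnt co-receptors Lrp5 and Lrp6 and the Dickkopf receptor Kremen1. Their ratios between the ages were 0.922, 1.34 and 0.913. In P6 Arterial cells Lrp6 stood at 2.15 times the level of the other labelled cells, on 8 UMIs. The interval of that ratio (0.913-4.33) included 1.

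The arterial reference genes were set beside these. At P6, 14 of 15 counted genes were at least 2-fold higher in Arterial cells, with a median ratio of 6.69, beside 15.2% of all genes, and at P15 9 of 14, beside 13.6%. Between the ages, over cells passing the filter, 3 of 15 were higher at P15, Sox17 (2.05), Cxcl12 (6.92) and Klf2 (3.47), and 1 was lower, Gja5 (0.399). Among all genes counted, 9.41% were higher and 7.05% lower. Within Arterial cells 13 of 14 lay within 2-fold and Gja5 was lower (0.115), beside 12.3% lower among all genes.

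Genes with the most similar pattern were ranked by Pearson correlation of log2(CPM + 10) over the 17 clusters of either age with at least 10 cells, among 10374 genes. The points share 2 libraries, and the Arterial clusters weigh heavily, so the coefficients are descriptions. Closest to Mgp were Gata2 (0.928), Cav2, Tm4sf1, Prkcd and Rfk, and closest to Eln were Crip2 (0.953), Tgm2, Trim47, Klf4 and Lmcd1. Closest to Dkk2 were Bmp2 (0.995), Ace, Serpinf1, Skap2 and Ehd2. Closest to Gkn3 were Gadd45g (0.916), Sdhaf4, Timp2, Arid5a and Prune2, on 65 Gkn3 UMIs in all. Among the members, Mgp had a coefficient of 0.944 with Gkn3, 0.943 with Fbln5 and -0.80 with Bgn, and Dkk2 of 0.965 with Fbln2.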

How the data were processed

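The authors deposited raw counts, 1 table of UMIs per Ensembl gene and barcode for each age. The labels name Seurat 3.0 and the mm10 build. The aligner and the counting program are not given in the sources used here. Cells were filtered on limits taken from the study's reporting summary, taking its limits on RNA counts to mean detected genes and its mitochondrial limit to be an upper one (200 to 3500 genes, at most 5% mitochondrial UMIs, and Hbb-bt, Neurod1 and Cd63 all at 0), and cluster labels were matched by barcode to a copy of the study's cell list that is shortened here. Levels are summed UMIs per 1000000 UMIs with exact Poisson intervals. Shares have exact Clopper-Pearson intervals, and ratios have exact conditional binomial intervals. All are at the 95% level and cover counting error only. A count of 0 was bounded by 3 counts. Genes were counted as higher or lower past 2-fold with at least 20 UMIs over both sides. With 1 library per age no test was run. Predicted labels came from 15 nearest neighbours on 30 principal components of 4512 genes other than the members, with 5-fold cross-validation (74.5% right at P6, 79.5% at P15). No doublet caller was run. In its place, 25 P6 and 24 P15 cells in which Xist and a Y-linked gene were detected together were left out in an alternative. The libraries share 7 barcode sequences. The members and gene lists were chosen with earlier results of these data known. Named genes are the members, list genes past 2-fold and up to 6 others per list, and the 5 genes most like Mgp, Eln, Gkn3 and Dkk2. Ratio intervals were tested on simulated Poisson counts, the model they assume, so that test does not cover UMIs spread unevenly over cells. Gene positions are from GENCODE on GRCm38 and promoters from RefSeq on GRCm38.p6. Python 3.11.15, numpy 2.4.6, scipy 1.17.1 and pandas 2.3.3 were used.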

Additional observations from a re-analysis of the deposited data

Results flagged for a closer look

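Eln was flagged because its P15 to P6 ratio ran in opposite directions in different sets of labelled cells. It was 0.599 (0.391-0.887) in Arterial cells, from 987 to 591 CPM, and 11.2 (8.72-14.5) in the other labelled cells, from 9.53 to 107 CPM. There was 1 library per age, so the difference between these ratios was not tested. It rests on 40 P6 and 11 P15 Arterial cells. With predicted labels the Arterial ratio turned to 1.28 (1.04-1.57), on 31 P6 and 38 P15 cells, and the ratio in other cells was 7.52. The higher Eln level at P15 outside the Arterial cluster was thus found with both sets of labels, and the lower level within it was not.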

How the results depend on the processing

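Among the P15 to P6 ratios, the Eln ratio in Arterial cells turned from 0.599 to 1.28 with predicted labels, and was 0.311 with each cell thinned to 3000 UMIs. The Arterial to other ratio of Eln at P15 moved from 5.54 to 14.5 and 3.34 under the same settings. The number of genes at least 2-fold lower at P15 was 2 and became 1 with every barcode and 1 without labelled and, where no label was held, predicted Arterial cells, since Dkk2 then stood at 0.568 and 0.629 and only Fbln1 remained. Dkk2 stood at 0.495 where predicted labels alone chose the cells left out. The number at least 2-fold higher was 4 or 5 under all 9 alternatives. It was 4 with labelled cells in place of cells passing the filter, where Fbln5 stood at 1.90 and Gkn3 at 8.23. In P6 Arterial cells the number higher was 7 and lay between 6 and 8 over 3 alternatives. No share over all genes stands beside the counts under these alternatives, so they describe the members only. With every barcode in place of filtered cells, the ratio was 4.47 for Eln, 4.12 for Mgp and 7.57 for Ltbp4, and none of the 10 ratios left its range of counting error without mural barcodes. Thinning left out 179 cells at P6 and 481 at P15 for low depth. The predicted labels, the thinned ratios within clusters and several other alternatives were chosen after seeing the data. No paired analysis was possible because there was 1 library per age. Depth limits Fbn1, Gkn3 at P6 and Dkk2 at P15, and the 11 labelled P15 Arterial cells limit every Arterial value at that age.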
